A study of Mus musculus with 12 samples.

Results

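Sterol and fatty acid synthesis genes were followed in mouse CD8+ T cells on 12 Agilent 1-colour arrays. The set holds 33 genes, which were chosen by function: 18 genes of sterol synthesis, 3 of sterol sensing and transport, 9 of fatty acid synthesis and 3 of the liver X receptor and cholesterol efflux branch. A probe matched 32 of the 33, and no probe matched Acat2. The probe of Scd1, a stearoyl-CoA desaturase, was well above background on no array, so 31 genes entered the fit, among 13882 named genes and 25738 features in all. Of the 31, 29 were well above background on every array. Nsdhl was so on 11 arrays and Fads2 on 6.

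Cells make cholesterol from acetyl-CoA through the mevalonate pathway, and they make fatty acids from the same precursor through acetyl-CoA carboxylase and fatty acid synthase. The transcription factor SREBP-2, encoded by Srebf2, raises the sterol genes when membranes are poor in sterol, and Insig1 holds it in the endoplasmic reticulum when sterol is plentiful. Liver X receptors respond to oxysterols and raise the exporters Abca1 and Abcg1. T cells raise both synthetic pathways when they are activated and begin to divide, and resting naive cells run them at a low rate.

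All mice were female C57BL/6, and their ages are not given in the sources used here. For 8 arrays the whole CD8+ population was taken from the peripheral (PLN) or the mesenteric (MLN) lymph nodes, and the latter drain the gut. The donors were wild-type mice (WT; 2 PLN and 2 MLN arrays), mice labelled AID KO (1 PLN and 1 MLN array), a knockout that impairs antibody class switching in B cells, and uMT mice (1 PLN and 1 MLN array), which lack mature B cells. For the other 4, CD8+ cells of naive phenotype (CD44low) from the PLN of AID KO and uMT mice were divided by Sca-1, a surface protein encoded by Ly6a, into Sca1p (positive) and Sca1m (negative) fractions, with 1 array each. Magnetic purification and flow sorting preceded RNA extraction. The submitters state that there are no replicates, and nothing in the labels says that the 2 WT arrays of a node came from separate mice. P-values therefore set each fitted difference against a scatter about the fit that is pooled over total and naive arrays. They need not reflect variation between mice. In such bulk RNA, fewer cells with a transcript and less transcript per cell cannot be told apart.

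Between 50.1% and 56.8% of the spots of an array were well above background. Of 6 CD8 T cell markers, 5 were in the fit and all 5 were above background on all arrays. Of 8 B cell markers, 4 were in the fit and 2 were above background on all arrays, and Ms4a1 and Blk were among those not in the fit. Ly6a followed the sort, at 3.91 and 3.42 log2 units on the Sca1p arrays and 0.07 and -0.07 on the Sca1m arrays. Every direction for AID KO below refers to arrays so labelled, and nothing given here checks that label. A level is the log2 of the processed signal minus the log2 of the array's 75th percentile, so 0 stands for a spot at that percentile. Levels are compared between arrays for 1 gene and never between genes.

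RefSeq promoters (GRCm38.p6) were at hand for 25 of the 33 genes, and the 250 bases before each start were searched for 4 motifs on both strands. No motif contains another. A CCAAT box (CCAAT) stood in 16 of 17 sterol genes and 2 of 6 fatty acid genes, against 37.5% of the 27025 genes in the table. A GC box (GGGCGG) stood in 16 of 17 sterol genes and 3 of 6 fatty acid genes, against 35.4% of all genes. An E-box (CACGTG) was found in 4 of 17 sterol genes and 0 of 6 fatty acid genes, against 6.86% of all genes. The SREBP site of the form TCACNCCAC was found in Hmgcs1 alone, against 1.22% of all genes. A match is a description of the letters and not a measured binding site. No link between a motif and a difference in level was tested. The 4 stretches below are of genes with differences described later, none of which passed the threshold in the main fit. These genes are Hmgcs1 in naive cells, Insig1 and Cyp51 in total cells of the knockouts, and Fasn on the uMT MLN array. Each stretch runs 5′ to 3′ towards the start of the gene. Capitals mark CCAAT boxes, read as CCAAT or ATTGG, and, in Hmgcs1, also the SREBP site, whose first base lies 137 bases before the start.
Hmgcs1, chr13:119690101-119690350, plus strand: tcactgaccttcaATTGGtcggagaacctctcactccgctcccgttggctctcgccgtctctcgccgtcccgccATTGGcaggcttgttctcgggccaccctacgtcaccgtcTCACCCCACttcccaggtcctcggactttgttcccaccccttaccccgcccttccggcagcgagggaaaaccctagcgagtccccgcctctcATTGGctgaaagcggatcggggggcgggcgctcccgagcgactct
Insig1, chr5:28071162-28071411, plus strand: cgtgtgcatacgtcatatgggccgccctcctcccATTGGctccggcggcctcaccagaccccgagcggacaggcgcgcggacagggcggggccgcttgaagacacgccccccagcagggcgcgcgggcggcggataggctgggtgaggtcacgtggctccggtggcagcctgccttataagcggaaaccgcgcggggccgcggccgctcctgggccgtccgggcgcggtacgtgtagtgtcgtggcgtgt
Cyp51, chr5:4104698-4104947, minus strand: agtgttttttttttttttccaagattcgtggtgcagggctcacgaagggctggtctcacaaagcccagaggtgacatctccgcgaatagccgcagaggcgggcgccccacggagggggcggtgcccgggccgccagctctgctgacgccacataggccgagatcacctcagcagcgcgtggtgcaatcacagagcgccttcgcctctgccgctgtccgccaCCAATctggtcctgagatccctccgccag
Fasn, chr11:120824548-120824797, minus strand: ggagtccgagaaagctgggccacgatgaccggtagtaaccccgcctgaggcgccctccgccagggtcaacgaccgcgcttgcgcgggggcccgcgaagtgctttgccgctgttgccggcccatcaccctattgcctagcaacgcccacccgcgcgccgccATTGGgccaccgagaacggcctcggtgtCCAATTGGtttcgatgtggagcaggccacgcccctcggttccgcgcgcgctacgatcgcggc
The CCAAT box nearest to the start lay 45 bases before it in Hmgcs1, 29 in Cyp51, 59 in Fasn and 216 in Insig1, and 2 of the 3 boxes of Fasn overlap on opposite strands.

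These genes differed little between arrays. The standard deviation over the 12 arrays had a median of 0.19 over the 31 members, against 0.31 over all features. The range from the lowest to the highest array was under 1 log2 unit in 25 of 31 members, against 12731 of 25738 features. A filter for probes well above background on all arrays kept 29 of the 31 members, and left 19641 features. The spread was not compared with that of features of equal brightness. Between the 2 WT arrays of a node, which lay on different slides, the sterol genes had a median difference of -0.08 in PLN and -0.09 in MLN, and the fatty acid genes of -0.18 and -0.28. The fit carries a slide term for this reason, and values between 2 arrays are given within a slide, except for the AID KO and uMT pairs between nodes, which lie on 2 slides.

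Along the sterol pathway, Hmgcs1, which makes HMG-CoA, had levels from 2.62 on Sca1p uMT to 3.23 on WT PLN 1. Mvk, mevalonate kinase, ranged from 1.80 on uMT MLN to 2.37 on uMT PLN. Pmvk, the kinase of the next step, ranged from 2.24 to 2.74. Mvd, the decarboxylase that forms isopentenyl diphosphate, ranged from -0.33 to 0.41. Idi1, which isomerizes that product, ranged from 0.35 to 0.88. Fdps, farnesyl diphosphate synthase, ranged from 2.22 to 2.58. Fdft1, squalene synthase and the first committed step to sterols, ranged from 1.06 on uMT MLN to 1.81 on Sca1m uMT. Sqle, squalene epoxidase, ranged from 0.53 on uMT MLN to 1.12 on Sca1m uMT. Lss, which closes the lanosterol rings, ranged from 0.13 to 0.46. Cyp51, lanosterol demethylase, ranged from -1.54 on uMT MLN to -0.89 on WT MLN 2. Tm7sf2, a sterol reductase, ranged from 0.18 on Sca1p uMT to 1.02 on uMT PLN. Msmo1, a methyl sterol oxidase, ranged from 1.65 to 2.40. Hsd17b7, a sterol ketone reductase, ranged from 0.15 to 0.67. Ebp, the sterol isomerase, ranged from 3.90 to 4.16, the narrowest span among these enzymes. Sc5d, the sterol desaturase, ranged from 1.23 to 1.86. Dhcr7, which reduces 7-dehydrocholesterol to cholesterol, ranged from -0.59 to -0.15. Nsdhl, the sterol dehydrogenase, is given apart below.

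Among the genes that sense or carry sterol, Srebf2 ranged from -0.46 on uMT PLN to 0.66 on WT PLN 1. Insig1 ranged from -2.53 on AID KO PLN to -1.70 on WT MLN 1. Stard4, which carries cholesterol between membranes, ranged from -0.75 to -0.01. In the fatty acid branch, Acly, which makes cytosolic acetyl-CoA from citrate, ranged from 4.36 to 4.69. Acaca, acetyl-CoA carboxylase and the committed step, ranged from 1.63 on uMT PLN to 2.41 on WT MLN 1. Fasn, fatty acid synthase, ranged from 4.33 on Sca1p AID KO to 5.26 on WT MLN 1. Elovl6, an elongase, ranged from 0.48 to 1.45. Scd2, a stearoyl-CoA desaturase, ranged from 2.21 on uMT MLN to 3.26 on AID KO PLN. Fads1, a desaturase of polyunsaturated fatty acids, ranged from -2.69 to -1.65. Fads2, its partner, was not well above background on any array of slide 1 and read between -4.14 and -3.41 on the arrays where it was. Srebf1, which encodes SREBP-1, ranged from 3.76 to 4.11. In the efflux branch, Nr1h2, liver X receptor beta, ranged from 3.72 to 4.20. Abca1 ranged from -0.64 on WT MLN 2 to 0.74 on Sca1p uMT, and Abcg1 from 3.58 to 4.06. Abca1 thus spanned 1.38 log2 units, more than any other member save Nsdhl and Fads2.

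**Figure D1:**
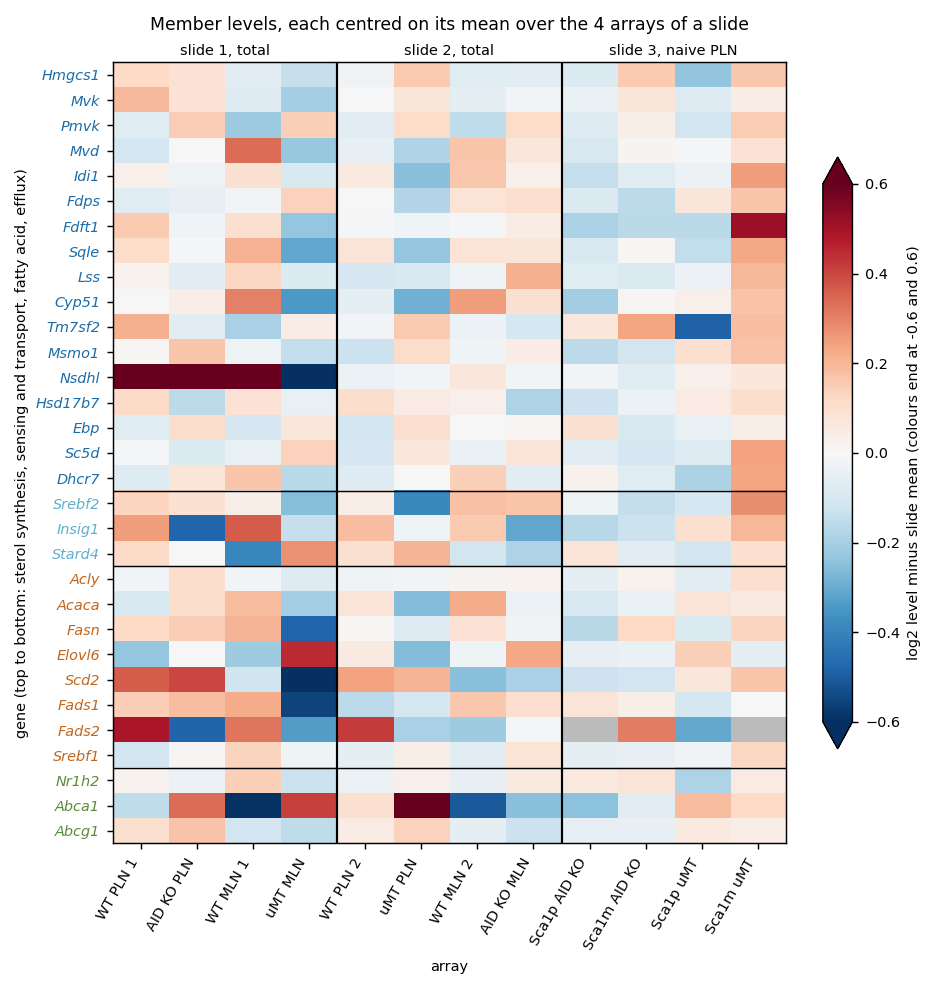
Heat map of 31 genes (rows, grouped by role) on 12 arrays (columns, grouped by slide), with each value shown as the log2 level minus the gene's mean over the arrays of that slide, and grey where a spot was removed. The Sca1m uMT column is red for most sterol genes (highest of its slide for 17 of 20). Its median is 0.17 over the sterol genes and 0.01 over all features. The uMT MLN column is blue for many sterol and fatty acid genes.

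In total CD8+ cells labelled AID KO, 0 of 31 members passed the threshold of adjusted p 0.05 against WT in limma's moderated test, where 226 of 25738 features, or 0.878%, did so. The median difference was -0.02 over 20 sterol genes (0.05 when arrays were scaled to their median), 0.05 over 8 fatty acid genes and 0.01 over all features, and 4 of 31 members had an unadjusted p under 0.05, which is 12.9%, against 14.3% of all features. The nearest to the threshold was Insig1. Its levels were -1.81 and -1.92 on the WT PLN arrays, -2.53 on AID KO PLN, -1.70 and -1.95 on the WT MLN arrays and -2.42 on AID KO MLN. Both AID KO arrays thus lay below all 4 WT arrays, without overlap, and so did the uMT arrays, at -2.13 in PLN and -2.20 in MLN. The fitted difference was -0.63 ± 0.10 (SE; adjusted p = 0.0667), or 1.55-fold lower. It passed with the authors' own value table (adjusted p = 0.0306) and among probes above background on all arrays (adjusted p = 0.0263), and its adjusted p over the alternatives ran from 0.0263 to 0.633. Among the other enzymes, Hsd17b7 differed by -0.25 ± 0.08 (adjusted p = 0.22) and Pmvk by 0.26 ± 0.09 (adjusted p = 0.264). Msmo1 differed by 0.15 ± 0.10 and Ebp by 0.13 ± 0.10, each with the same sign on both arrays. Second, dimmer probes differed by 0.09 in PLN and -0.45 in MLN for Hsd17b7, and by 0.17 and -0.13 for Ebp. Those of Pmvk and Msmo1 were higher on both AID KO arrays. Srebf2 itself read 0.62 on AID KO PLN against 0.66 on WT PLN 1, and 0.09 on AID KO MLN against 0.10 on WT MLN 2. In the fatty acid branch, Elovl6 had the largest difference with 1 sign in both nodes, at 0.22 ± 0.19 (adjusted p = 0.701), and the differences of Acly, Srebf1 and Scd2 were 0.07, 0.07 and 0.05. Stard4 differed by -0.02, with a sign that other scalings turned. Genes of the early response to activation or handling moved with the AID KO arrays: the median of 10 such genes was -1.12 in PLN and -1.07 in MLN against the WT array of the slide. Their part in the Insig1 values was not tested.

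In total CD8+ cells of uMT mice, again 0 of 31 members passed, where 9 features, or 0.035%, did so. The same 4 WT arrays served here as for AID KO. The fatty acid genes had a median of -0.30 (6 of 8 lower), the sterol genes of -0.09 (13 of 20 lower, and 0.01 when arrays were scaled to their median) and all features of -0.01. An unadjusted p under 0.05 was found for 11 of 31 members, or 35.5%, against 17.6% of all features. Sqle read 0.95 and 0.98 on WT PLN, 0.66 on uMT PLN, 1.04 and 0.98 on WT MLN and 0.53 on uMT MLN. Both uMT arrays lay below all WT arrays, at -0.39 ± 0.10 (adjusted p = 0.175). Cyp51, further along the pathway, differed by -0.44 ± 0.11 (adjusted p = 0.173). Srebf2 differed by -0.42 ± 0.12 (adjusted p = 0.205). Its 2 WT PLN arrays, which lie on different slides, stood at 0.66 and -0.04. Against the WT array of the slide and node, Srebf2 was -0.43 on uMT PLN and -0.29 on uMT MLN. Insig1 differed by -0.32 ± 0.10, Mvd by -0.29 ± 0.12 and Idi1 by -0.26 ± 0.09, with adjusted p-values of 0.224, 0.286 and 0.237. Stard4 went the other way, at 0.31 ± 0.15 (adjusted p = 0.332). Acaca differed by -0.33 ± 0.11 (adjusted p = 0.237). Fads2, which slide 1 did not measure above background, differed by -0.52 ± 0.26 (adjusted p = 0.365).

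The fatty acid values came mostly from 1 array. On uMT MLN against WT MLN 1, 7 of 8 fatty acid genes were lower with a median of -0.46, and 14 of 20 sterol genes with a median of -0.16, while the median of all features was 0.01 and 48.7% of them were lower. On uMT PLN against WT PLN 2, the medians were -0.06 and 0.01, with 5 of 8 and 9 of 20 lower. The 7 genes include Fads2, whose signal was not well above background on either array. Fasn read 5.26 on WT MLN 1, 5.00 on WT MLN 2 and 4.58 on uMT MLN, against 5.18 and 4.92 on WT PLN and 4.84 on uMT PLN. The fitted difference of Fasn between uMT and WT was -0.38 ± 0.13 (adjusted p = 0.239), and -0.08 without the uMT MLN array. Scd2 read 2.74 on WT MLN 1 and 2.21 on uMT MLN, a difference of -0.52 within slide 1, and differed by -0.04 on uMT PLN. WT MLN 2 read 2.26, but it lies on slide 2, and the WT PLN arrays differed by -0.47 between the same slides. Fads1 differed by -0.78 on uMT MLN, where it read -2.43, and by 0.05 on uMT PLN. Without the uMT MLN array, the median of the fatty acid genes in the fit was -0.06. Elovl6 ran the other way, with 0.66 on uMT MLN and -0.32 on uMT PLN. Whether the uMT difference itself depended on the node was tested with an interaction term, which passed for 2 of 25738 features, or 0.00777%. Its values were 0.98 ± 0.20 for Elovl6, -0.83 ± 0.22 for Fads1, -0.59 ± 0.18 for Fasn and -0.48 ± 0.17 for Scd2, with adjusted p-values from 0.501 to 0.543, so none of these 4 passed. The same interaction for AID KO passed for 0 features, or 0%, and 636 had an unadjusted p under 0.05. Interferon response genes moved with the same array. The median of 11 of them was 2.27 above WT MLN 1 on uMT MLN, 1.61 above WT MLN 2 on AID KO MLN, 0.00 on uMT PLN and -0.40 on AID KO PLN. On AID KO MLN, where they were also high, the fatty acid genes had a median of 0.03 and the sterol genes of -0.01. Haemoglobin transcripts had their highest summed level of the 12 arrays on uMT MLN too (2.31), where the median of 2 genes was 1.63 above WT MLN 1, against 1.75 on uMT PLN. Of 10 proliferation genes 2 were higher on uMT MLN than on WT MLN 1, with a median of -0.17, and 2 on uMT PLN, with a median of -0.08. The part of these 3 lists in the uMT MLN values was not tested.

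**Figure D2:**
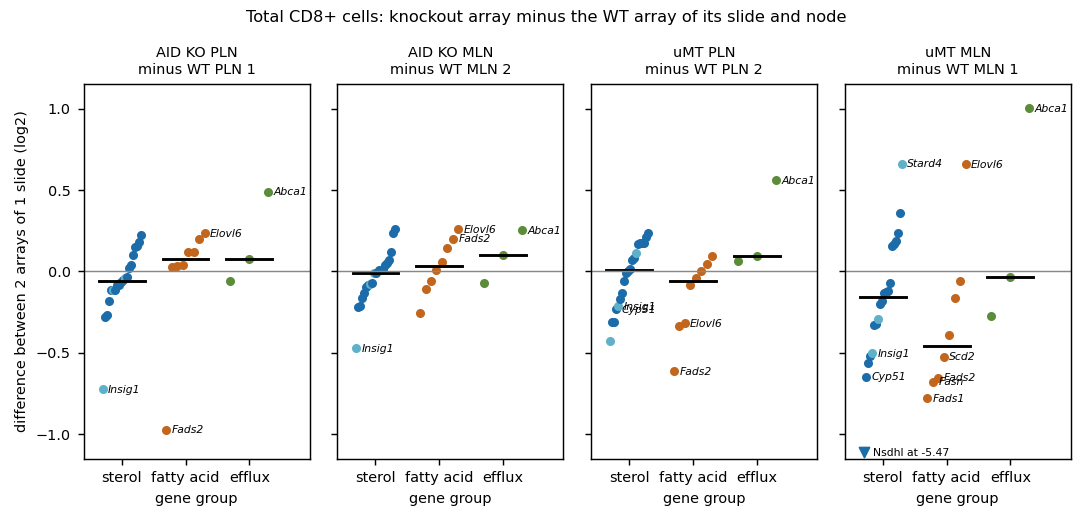
Difference in log2 level between each knockout array and the WT array of the same slide and node (y axis) for the sterol, fatty acid and efflux genes (x axis), 1 point per gene, with the group median as a black bar and a triangle where a value lies below the axis. Insig1 is low on both AID KO arrays (-0.72 and -0.47), Abca1 is high on all 4 arrays, and the fatty acid median is lowest on uMT MLN, at -0.46. Fads2 was not well above background on any array of slide 1 (AID KO PLN and uMT MLN panels).

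Nsdhl was the 1 member that passed a test, and it rests on 1 spot. Its level lay between -1.27 and -0.56 on 11 arrays and at -6.74 on uMT MLN, where it was not well above background. If its level there is set at the lowest signal called above background on that array, it was 10.1-fold below the mean of the 2 WT MLN arrays. That signal is the lowest over all probes so called and not a limit set for this spot. The interaction of uMT with node was -5.48 ± 0.19 (adjusted p = 0.017). It was -2.21 (adjusted p = 0.0206) with another background correction, which lifts dim signals. No member passed this interaction when any 1 array was left out and it could still be fitted, with no filter on dim probes or with the 8 total arrays alone. The array holds 1 Nsdhl spot, whose median signal was 48 over a local background of 42 on uMT MLN and 353.5 on WT MLN 1, and it carried no outlier flag. Of 12 spots within 2 positions of it that were above background on WT MLN 1, all were above background on uMT MLN too, with a median difference of -0.17. On uMT PLN, Nsdhl read -1.10 against -1.12 on WT PLN 2. Whether the spot or the transcript was missing was not tested.

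In the efflux branch, Abca1 was higher on every knockout array of total cells than on the WT array of its slide and node. It read 0.01 and -0.04 on WT PLN, 0.50 on AID KO PLN, 0.52 on uMT PLN, -0.43 and -0.64 on WT MLN, -0.39 on AID KO MLN and 0.58 on uMT MLN. Within each node, both knockouts thus lay above both WT arrays, by the least on AID KO MLN. The 4 differences within a slide were 0.49 and 0.26 for AID KO and 0.56 and 1.00 for uMT, and each kept its sign with another background correction, with the authors' value table, with quantile normalization, with median scaling and with the mean of the gene's probes. That mean adds a second Abca1 probe, which was above background on only 4 of 12 arrays. The fit gave 0.82 ± 0.13 for uMT (adjusted p = 0.106), or 1.77-fold, and 0.33 ± 0.13 for AID KO (adjusted p = 0.318). The uMT value passed among probes above background on all arrays (adjusted p = 0.0483), ran up to an adjusted p of 0.54 over the other settings, and was 0.60 without uMT MLN. Abcg1, the partner exporter, differed by -0.07 to 0.09 on these 4 arrays, and Nr1h2 by -0.27 on uMT MLN and by -0.06 to 0.10 on the other 3. Macrophages also express Abca1. Of 6 of their markers 2 were in the fit, with a summed level from 0.79 on AID KO PLN to 1.87 on WT MLN 2. Cd68 read lower on all 4 knockout arrays than on the WT array of the slide and node, and Csf1r on 3, the exception being AID KO PLN (-0.50 against -0.51). Their part in the Abca1 values was not tested.

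**Figure D3:**
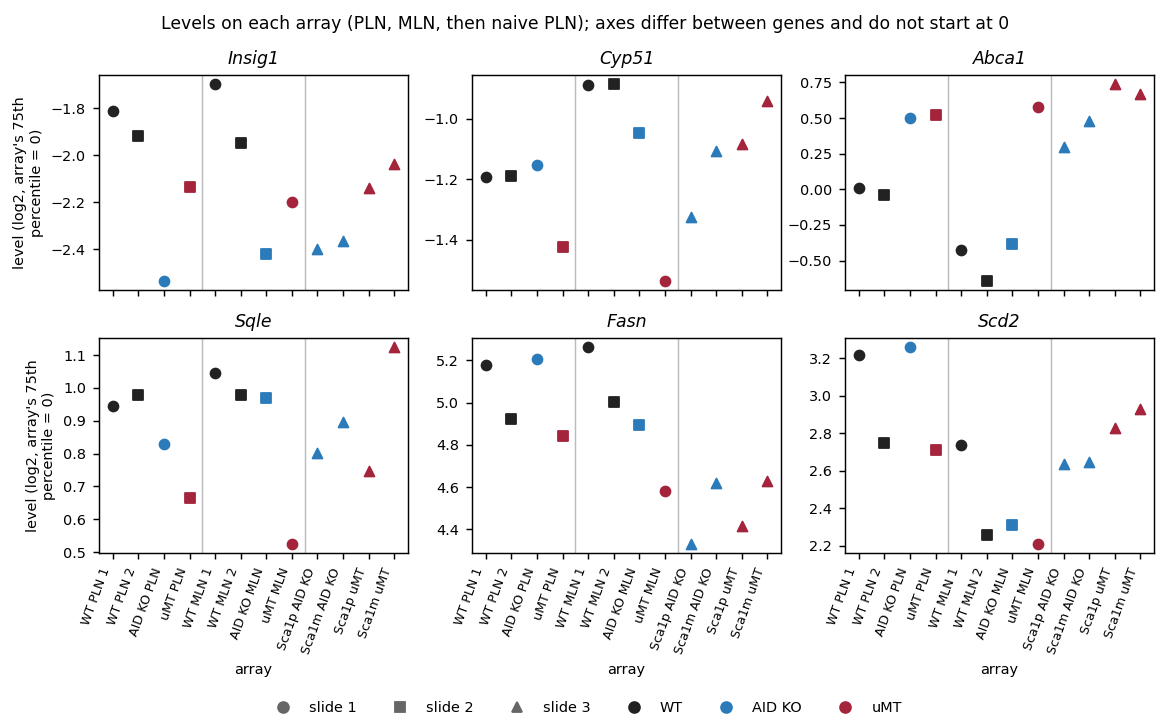
Level of 6 genes on each array (y axis, log2 with the array's 75th percentile at 0; x axis, arrays ordered as PLN, MLN and naive PLN), 1 point per array, with symbols for slides and colours for genotypes. AID KO points lie below the WT points for Insig1 in total cells, uMT points lie below the WT points of their node for Cyp51 and Sqle, and MLN points lie below the PLN points of the same genotype for Scd2.

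Between MLN and PLN, 0 of 31 members passed, where 28 features, or 0.109%, did so, and 3 members, or 9.68%, had an unadjusted p under 0.05, against 9.11% of all features. The sterol genes had a median of 0.01, the fatty acid genes of -0.03 and all features of -0.02. Scd2 was lower in MLN in all 4 pairs of 1 genotype: 2.74 against 3.22 and 2.26 against 2.75 in WT, 2.31 against 3.26 in AID KO and 2.21 against 2.71 in uMT. The 2 WT pairs, each within 1 slide, differed by -0.48 and -0.49. In the AID KO and uMT pairs the 2 nodes lie on opposite slides, so slide and node are mixed there, and for Scd2 the WT arrays of 1 node differed between slides by -0.47 and -0.48. The fit gave -0.60 ± 0.09 (adjusted p = 0.14), which passed with another background correction (adjusted p = 0.0362). Abcg1 was lower in all 4 pairs as well, at -0.23 ± 0.07 (adjusted p = 0.399). Abca1 differed by -0.44 and -0.60 in the WT pairs and, across slides, by -0.89 in AID KO and 0.05 in uMT, and its fitted difference was -0.47 ± 0.10 (adjusted p = 0.271). Among sterol genes, those with 1 sign in all 4 pairs were Hmgcs1 at -0.17 ± 0.08, Fdps at 0.15 ± 0.08, Lss at 0.12 ± 0.09, Hsd17b7 at -0.06 ± 0.06 and Stard4 at -0.21 ± 0.12, with adjusted p-values of 0.598 or higher. Haemoglobin transcripts moved with the node: the median of 2 erythroid genes was higher in MLN in all 4 pairs, by 2.67 to 4.67. Their part in these values was not tested.

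In naive cells, the 4 arrays share 1 slide, and the Sca1p and Sca1m fractions of 1 genotype differ by the sort. In uMT, 20 of 20 sterol genes were lower on the Sca1p than on the Sca1m array, with differences from -0.68 to -0.03 and a median of -0.22, while 52.7% of all features were lower, with a median of -0.02. In AID KO, 12 of 20 were lower with a median of -0.04, against 46.4% of all features and a median of 0.02. The count in uMT was 18 of 20 with another background correction and 19 of 20 with the mean of a gene's probes. In the fit over both genotypes, 18 of 20 sterol genes and 6 of 7 fatty acid genes were lower in Sca1p, with medians of -0.12 and -0.06, against 0.00 for all features. None of the 30 members tested passed, where 4 features, or 0.0155%, did so, and 2, or 6.67%, had an unadjusted p under 0.05, against 8.24% of all features. Hmgcs1 read 2.77 on Sca1p and 3.01 on Sca1m in AID KO, and 2.62 and 3.02 in uMT. It was lower in Sca1p in both genotypes, at -0.32 ± 0.11 (adjusted p = 0.535). Tm7sf2 read 0.74 and 0.90 in AID KO and 0.18 and 0.85 in uMT, at -0.42 ± 0.16 (adjusted p = 0.581). A second, dimmer Tm7sf2 probe, also above background on all arrays, went the other way in AID KO. It differed by 0.37 there and by -0.80 in uMT. Fdft1 differed by -0.03 in AID KO and read 1.13 and 1.81 in uMT. Its difference of -0.35 ± 0.18 (adjusted p = 0.682) thus came from the Sca1m uMT array. A second, dimmer Fdft1 probe differed by -0.10 in AID KO and -0.28 in uMT. Sqle differed by -0.24 ± 0.12, Fasn by -0.25 ± 0.15 and Acly by -0.12 ± 0.09, each with the same sign in both genotypes. A second, dimmer Acly probe was higher in Sca1p, by 0.39 in AID KO and 0.07 in uMT.

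For the sterol genes, the array that stood apart was Sca1m uMT. It was the highest of the 4 naive arrays for 17 of 20 sterol genes and for 4 of the 7 fatty acid genes compared. No such count was made over all features. Relative to the mean of the slide, this array had a median of 0.17 over the sterol genes, 0.10 over the fatty acid genes and 0.01 over all features. Against Sca1m AID KO, 18 of 20 sterol genes were higher on it, with a median of 0.20, where all features had a median of 0.03 and 43.9% of them were lower. Sca1p uMT against Sca1p AID KO gave 10 of 20 lower and a median of 0.01, where all features had a median of -0.05 and 56.9% of them were lower. Over the other settings, between 7 and 10 sterol genes were lower in this second pair. A test of the difference between genotypes in the Sca1p effect passed for 26 features, or 0.102%, and for 0 of 30 members. Of these members 1, or 3.33%, had an unadjusted p under 0.05, against 11.4% of all features. With the term for this difference, the fit leaves no scatter among the 4 naive arrays. The p-values and standard errors of this interaction rest on the scatter of the total-cell arrays, which lie on other slides. Over the sterol genes that interaction had a median of -0.19 with 17 of 20 below 0. Over all features the median was -0.09, and 15327 of 25596 were below 0. Its values were -0.65 ± 0.25 for Fdft1 (adjusted p = 0.43), -0.53 ± 0.30 for Dhcr7 and -0.49 ± 0.22 for Srebf2. Proliferation genes moved with the same pair: their median over 10 genes was -0.33 for Sca1p against Sca1m in uMT and -0.11 in AID KO. Interferon response genes were higher in Sca1p by about the same in both genotypes, with medians of 0.37 and 0.36. The part of dividing cells in the sterol values was not tested. Each of the 4 naive groups is 1 array, so a genotype by sort difference and a difference of 1 sample cannot be told apart.

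**Figure D4:**
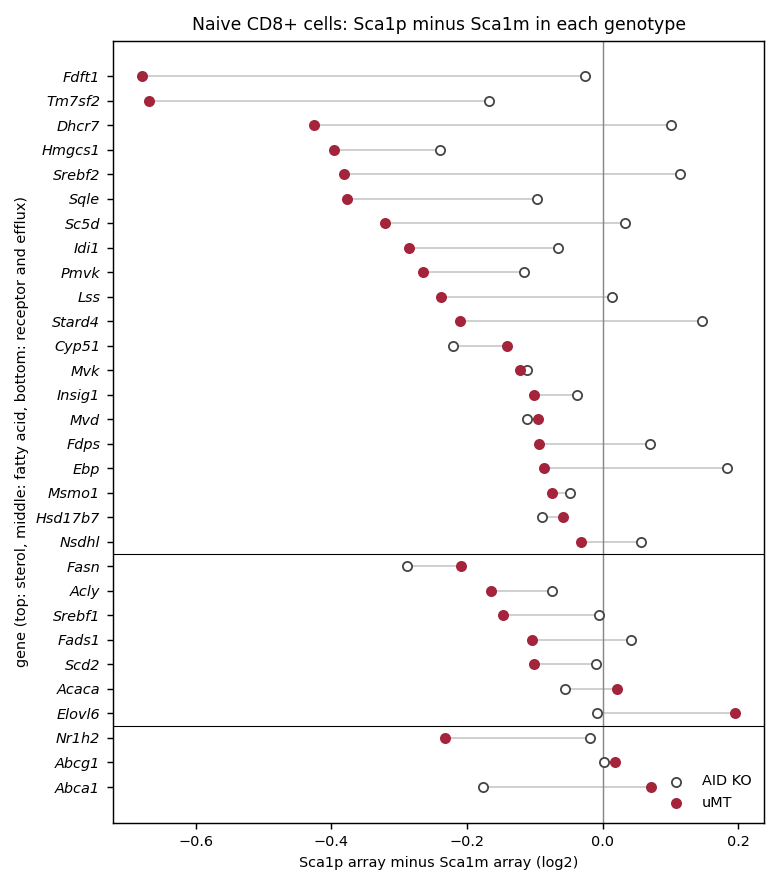
Difference in log2 level between the Sca1p and the Sca1m array (x axis) for each gene (y axis), in AID KO (open points) and uMT (filled points), with sterol genes at the top. All 20 filled sterol points lie below 0, and 12 of the 20 open points do.

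Comparing uMT with AID KO in naive cells, 0 of 31 members passed, where 91 features, or 0.354%, did so. An unadjusted p under 0.05 was found for 0 members, against 8.82% of all features. The sterol median was 0.12 with 15 of 20 higher in uMT, the fatty acid median 0.07 and that of all features 0.00. Fdft1 differed by 0.35 ± 0.18, Msmo1 by 0.26 ± 0.12, Fdps by 0.24 ± 0.11 and Tm7sf2 by -0.30 ± 0.16, with adjusted p-values of 0.618 or higher. Insig1 read -2.40 and -2.36 in AID KO and -2.14 and -2.04 in uMT. Both AID KO arrays lay below both uMT arrays, at 0.29 ± 0.12 for uMT minus AID KO (adjusted p = 0.573). Abca1 read 0.30 and 0.48 in AID KO and 0.74 and 0.67 in uMT, a difference of 0.31 ± 0.15 (adjusted p = 0.648), or 1.17 when the second, dimmer probe was averaged in. Scd2 differed by 0.24 ± 0.13 (adjusted p = 0.75).

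Further genes of the same pathways gave no call. Of 26 listed for sterol uptake, regulation, transport and oxidation, 24 were tested, and of 24 listed for fatty acid activation, elongation and regulation, 21 were. None of these 45 passed in any of the 5 comparisons, in either direction. Between 0 and 5 of each list had an unadjusted p under 0.05, against 8.24% to 17.6% of all features. For MLN against PLN these were 5 of 21 fatty acid genes and 4 of 24 sterol genes, against 9.11% of all features. There 3 of the 21 and 16 of the 24 were higher, with medians of -0.10 and 0.03, against -0.02 over all features. In total cells, the genes named for low p-values were Mylip, the ligase that degrades the LDL receptor, at 0.30 ± 0.08 for AID KO (adjusted p = 0.179), and Osbp, an oxysterol binding protein, and Acss2, an acetyl-CoA synthetase, at 0.43 ± 0.10 and 0.42 ± 0.10 for uMT (adjusted p = 0.157 for both). In MLN against PLN they were Elovl7, an elongase, at -0.39 ± 0.07 (adjusted p = 0.202) and Soat2, which esterifies cholesterol, at 1.00 ± 0.22 (adjusted p = 0.261). For Sca1p against Sca1m they were Pltp, the phospholipid transfer protein, at 0.70 ± 0.17 (adjusted p = 0.339) and Mbtps1, the protease that cuts SREBPs, at -0.27 ± 0.10 (adjusted p = 0.564). For naive uMT against AID KO it was Soat2, which read -3.50 and -4.37 in AID KO and was not well above background on either uMT array (adjusted p = 0.488), so no size is given.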

How the data were processed

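Each array's deposited file holds spot intensity values and other values that flag outlying and dim spots. Agilent Feature Extraction 11.0.1.1 made them, per the file headers and the submitters' processing notes. The processed intensity is background-subtracted and is not scaled between arrays. The authors' deposited value table holds log2 values whose median is equal within each of the 3 slides (9.47, 8.59 and 9.00) and whose order follows the processed intensity on each array. How it was scaled is not given in the sources used here, and it serves as an alternative. Outlier spots were left out (61 to 342 of 59305 per array), no spot was saturated, spots of a probe were averaged, and log2 values were scaled to each array's 75th percentile (423.9 to 773.5). Probes well above background on at least 2 of 12 arrays were kept, and the brightest stood for its gene. Probes were named through their accession and RefSeq (GRCm38.p6): 32994 of 56605 had 1 symbol and 23611 none.

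A single linear model of all 12 arrays (limma 3.58.1, R 4.3.3) held terms for node and slide, for each knockout among total cells, and for genotype and Sca-1 fraction among naive cells (4 residual degrees of freedom, 3 with an interaction). Two-sided moderated p-values were adjusted by Benjamini and Hochberg's method across every feature tested, and 0.05 was the threshold. The figure after ± is the fit's standard error. Naive and total cells lie on different slides and were not compared. The labels name the matching WT control for PLN, and MLN arrays were matched by slide. The code was tested on simulated data: of 100 features changed by 1 log2 unit it recovered 51 for AID KO against WT and 31 for naive uMT against AID KO. The number of arrays limits the precision.

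Members and lists were chosen with earlier results of these data known. Every member is named with its levels. Differences are given, per role, for up to 4 members with the largest difference whose single-array differences share 1 sign, and for the 2 further genes with the lowest p in each comparison, except that some results are not reported here. Values outside this rule were chosen after they were seen. The shared sign was that of the brightest probe, and other probes, kept for 14 of the 31 genes, need not share it. Background correction by normexp (offset 50) used the median spot signal, since no mean spot signal was at hand. The alternatives are in the closing section.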

Additional observations from a re-analysis of the deposited data

Results flagged for a closer look

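The difference between uMT and WT differed between the nodes for Nsdhl, the sterol dehydrogenase, by -5.48 ± 0.19 in a test of the interaction (limma, adjusted p = 0.017), which is what singled it out. The value rests on 1 spot of the uMT MLN array that was not well above background, and it cannot be computed without that array. No cause was tested. No group held 4 or more arrays, so no array was tested for standing apart from its group.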

How the results depend on the processing

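The processing was varied in 22 ways. For named genes, 1134 values were recomputed: 1118 kept their direction and their side of the threshold, 4 passed it (given beside Insig1, Abca1 and Scd2, of which Insig1 did so under 2 settings) and 12 turned sign. Those that turned were Scd2 in AID KO (-0.0152 with normexp, and -0.0134 without WT PLN 2 to 0.1078 over single arrays left out), Stard4 in AID KO (0.0527 with median scaling, 0.0483 with the mean of probes, and -0.124 to 0.0261 over single arrays left out), Insig1 in Sca1p (0.0578 with normexp), Abcg1 in Sca1p (-0.037 with normexp, -0.0496 with median scaling) and Acly in Sca1p (0.0557 with the mean of probes). The cause was not tested.

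Counts of features passing depended more on the setting. With normexp they were 345 for AID KO, 51 for uMT, 60 for MLN, 11 for Sca1p, 29 for naive uMT and 13 for the interactions of uMT with node and with Sca1p alike. With the authors' table they were 580, 72, 61, 13, 17, 0 and 70 in the same order, and with probes above background on all arrays 583, 93, 71, 20 and 25, with 0 for uMT with node. With no filter they were 50 for AID KO, 0 for uMT, 16 for MLN, 0 for Sca1p, 1 for uMT with node and 710 for uMT with Sca1p. Without the slide term they were 86 for AID KO, 2 for uMT, 2 for Sca1p, 56 for naive uMT and 1 for uMT with Sca1p. Quantile normalization gave 18 for uMT, the matched pair block 15 for AID KO, the mean of probes 10 for uMT with Sca1p, naive arrays alone 0 for Sca1p and 0 for naive uMT, and total arrays alone 1 for uMT with node. Leaving out 1 array gave 1 to 165 for AID KO, 0 to 9 for uMT, 2 to 24 for MLN, 0 to 175 for Sca1p, 25 to 205 for naive uMT, 0 to 1 for uMT with node and 0 to 2 for uMT with Sca1p.

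The count of members passing became 1 for AID KO with the authors' table and with probes above background on all arrays, 1 for uMT with the latter, and 1 for MLN with normexp. For uMT with node it became 0 with no filter and total arrays alone. It was 0 by construction with the authors' table and probes above background on all arrays, which leave Nsdhl out, and 0 to 0 over single arrays left out. For uMT it was 0 to 1, where Nsdhl passed without uMT PLN (-5.51, adjusted p = 0.00224), which leaves the uMT MLN array and its 1 spot not above background as the only uMT value. The sterol median became 0.0499 for AID KO, 0.0122 for uMT and 0.1912 for naive uMT with median scaling. Over single arrays left out it was -0.1879 to -0.0082 for uMT, -0.224 to -0.0427 for Sca1p and 0.008 to 0.1987 for naive uMT. The fatty acid median for uMT was -0.4392 to -0.0594, the last without uMT MLN. Sqle, Cyp51 and Scd2 then differed by -0.29, -0.23 and -0.04. The labels give no replicate numbers, so the block tried was the matched pair of a knockout and a WT array.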
